A study of Mus musculus with 12 samples.

Results

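The 10 genes described here mark the endothelium of the liver and were taken by name from a table of 53465 genes, namely Stab1, Stab2, Lyve1, Clec4g, Fcgr2b, Pecam1, Cdh5, Vwf, Wnt2 and Rspo3. All 10 were found, each as a single row, and all 10 had counts in each of the 12 livers. Steady-state RNA of whole liver tissue from C57BL/6N mice was measured by RNA-seq in 3 groups of 4 animals, 1 liver each. Young mice were 3 months old, middle-aged mice 12 months and aged mice 18 months. The study's methods give its mice as male and without signs of liver disease, and no label names a treatment. The study used RNA-seq of its own, from young and old livers as in the labels' extraction, and a public atlas that covers all 3 ages, so which of these sources the 12 livers came from is uncertain.

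Blood crosses the liver through sinusoids, capillaries whose fenestrated endothelium has no continuous basement membrane and clears macromolecules and immune complexes from plasma with scavenger receptors and lectins. The endothelium of the central vein, into which the sinusoids drain, and of the sinusoid next to it secretes Wnt ligands and R-spondin, which switch on the pericentral gene programme in neighbouring hepatocytes. The genes fall into 3 roles accordingly. Stab1, Stab2, Lyve1, Clec4g and Fcgr2b encode receptors of the sinusoidal surface, Pecam1, Cdh5 and Vwf are expressed across endothelial beds, and Wnt2 and Rspo3 encode a Wnt ligand and a secreted enhancer of Wnt signalling.

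None of the 10 genes passed the test in any pair of ages. Levels of the 5 sinusoidal receptors, of Pecam1 and of Cdh5 had overlapping ranges in aged and young livers. Lyve1 was lower in all 4 middle-aged livers than in all 4 young ones, with means of 59.3 and 104 normalised counts, and Wnt2 was lower in all 4 aged livers than in all 4 young ones, with means of 17.7 and 30.3, but neither difference passed the adjusted threshold. Normalised counts are read counts divided by the size factor of the library, and the threshold is a DESeq2 adjusted p of 0.05 over all genes tested. The plot of normalised counts by liver shows each gene.

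**Figure D1:**
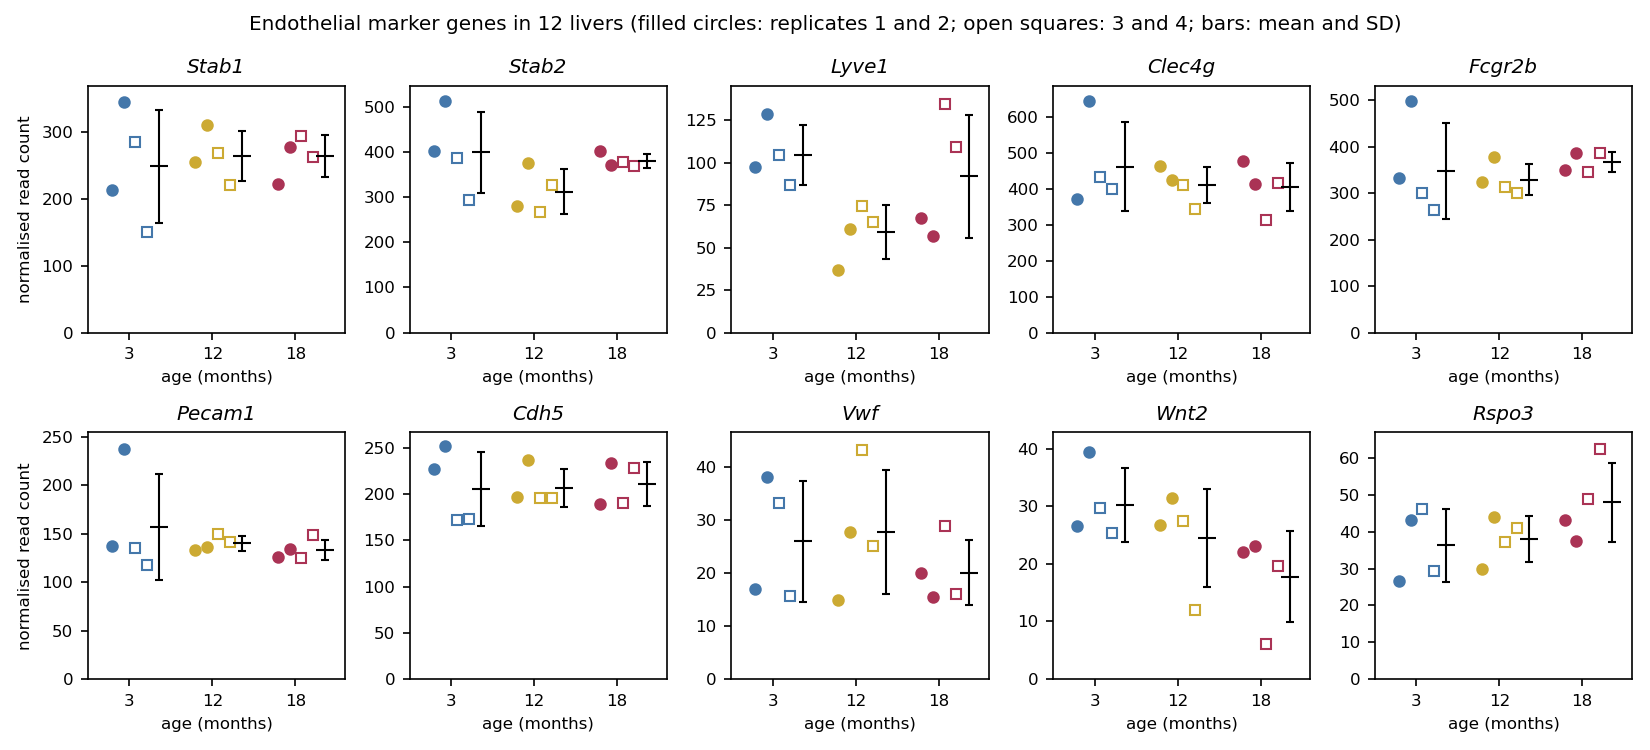
Normalised read counts (y axis, from 0) of the 10 endothelial genes against age in months; each symbol is 1 liver, filled circles are replicates 1 and 2, open squares replicates 3 and 4, and the bars give mean and SD of 4 livers. Lyve1 lies between 36.7 and 74.2 in middle-aged livers and between 86.9 and 129 in young ones, Wnt2 lies between 6.12 and 23.1 in aged livers and between 25.4 and 39.5 in young ones, and for the other genes the young and aged ranges overlap.

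Gene counts per library ranged from 8124312 to 10527159, at which 3 counts, taken as the floor of detection, correspond to a CPM (counts per common total) of 0.285 to 0.369. Young replicate 2 stood apart. Mitochondrially encoded genes took 19.2% of its gene counts, against 5.48 to 10.7% elsewhere, and its summed red blood cell markers reached 86580.2 normalised counts. Young replicate 3 and middle-aged replicate 1 had 22284 and 19982 genes detected, against at most 17563 elsewhere. Synthetic spike-in transcripts, counted in the same table, split the livers by their relative amounts into replicates 1 and 2 and replicates 3 and 4 of every age (r of at least 0.997 within and at most 0.925 between these sets). The tissue carried the markers of liver, with hepatocyte genes summing to between 962201 and 1208440.0 normalised counts. In whole tissue, fewer endothelial cells and less RNA per endothelial cell cannot be told apart.

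Levels were compared between genes per kb of exon, and the order was led by a lectin. Clec4g had 173 ± 33.5 normalised counts per kb (SD over 12 livers), followed by Fcgr2b (60.2 ± 10.4), Cdh5 (49.4 ± 6.37) and Stab2 (41.5 ± 7.62). Next in level per kb came Lyve1 (29.2 ± 10.3), Stab1 (25.2 ± 5.01) and Pecam1 (23.1 ± 5.0), then Rspo3 (13.2 ± 3.20), Wnt2 (10.7 ± 3.88) and Vwf (1.53 ± 0.607). Clec4g exceeded Fcgr2b in 12 of 12 livers, Fcgr2b exceeded Cdh5 in 12, Pecam1 exceeded Rspo3 in 12 and Wnt2 exceeded Vwf in 12. Neighbours within the middle of the order lay closer: Lyve1 was above Stab1 in 8 livers, Stab1 above Pecam1 in 8 and Rspo3 above Wnt2 in 7 on this scale, and their ranges overlapped. With the longest transcript as length, Pecam1 (41.8) moved ahead of Stab1 (32.4) and Lyve1 (29.4).

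The spread between livers differed among the genes. Cdh5 varied least, with a coefficient of variation of 12.9% over the 12 livers, where counting error alone at its depth would give 6.90%. Lyve1 varied by 35.4% against 10.8% from counting. For Vwf (39.6%) and Wnt2 (36.2%) counting error alone gives 20.1 and 20.4%, since these genes had only 15 to 49 and 7 to 35 raw counts per library. Counting intervals cover counting error only.

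RefSeq windows of GRCm38.p6 from 250 bases before to 50 bases after the annotated start were at hand for 5 of the 10 genes. Shown are 2 pairs that varied together across livers as described further on, Clec4g with Wnt2 and Stab1 with Fcgr2b. Capitals mark GGAAG on either strand (CTTCC on the printed one), the core letters that ETS factors, a family with many members in endothelium, bind.

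Clec4g (chr8:3720602-3720901, minus strand): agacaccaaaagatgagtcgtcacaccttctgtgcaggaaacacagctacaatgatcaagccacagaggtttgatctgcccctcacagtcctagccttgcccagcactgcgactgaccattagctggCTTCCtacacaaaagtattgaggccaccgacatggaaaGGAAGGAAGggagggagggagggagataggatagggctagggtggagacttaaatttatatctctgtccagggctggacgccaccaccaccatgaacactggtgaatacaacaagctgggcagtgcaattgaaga

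Wnt2 (chr6:18030396-18030695, minus strand): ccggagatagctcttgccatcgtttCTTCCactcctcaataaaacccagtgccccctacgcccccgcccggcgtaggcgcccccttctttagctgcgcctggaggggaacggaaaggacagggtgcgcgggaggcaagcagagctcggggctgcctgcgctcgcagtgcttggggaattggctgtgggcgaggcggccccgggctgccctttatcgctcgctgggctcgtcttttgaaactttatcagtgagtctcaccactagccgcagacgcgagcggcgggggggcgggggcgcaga

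Stab1 (chr14:31168592-31168891, minus strand): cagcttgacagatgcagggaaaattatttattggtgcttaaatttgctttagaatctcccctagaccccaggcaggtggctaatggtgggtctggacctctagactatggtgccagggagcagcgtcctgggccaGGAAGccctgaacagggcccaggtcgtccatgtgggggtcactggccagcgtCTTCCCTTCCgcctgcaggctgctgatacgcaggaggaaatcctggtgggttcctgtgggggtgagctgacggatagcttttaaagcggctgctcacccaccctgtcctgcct

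Fcgr2b (chr1:170976022-170976321, minus strand): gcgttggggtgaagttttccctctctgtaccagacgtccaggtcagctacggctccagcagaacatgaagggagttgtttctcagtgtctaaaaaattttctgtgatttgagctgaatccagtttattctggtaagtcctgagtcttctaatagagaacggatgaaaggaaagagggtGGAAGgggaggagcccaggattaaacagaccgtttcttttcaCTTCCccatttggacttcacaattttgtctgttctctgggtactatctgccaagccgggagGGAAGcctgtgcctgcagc

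Matches to GGAAG numbered 3 in the windows of Clec4g, Stab1 and Fcgr2b and 1 in those of Wnt2 and Stab2. All 5 windows thus held it, as did 71.4% of 32851 windows, so the letters do not set these genes apart. The letters AGATAA, bound by the zinc finger family to which Gata4 of the sinusoid belongs, were in none of the 5 windows and in 11.2% of all windows. TATAAA was found in the Clec4g window alone, on the strand opposite to the gene, and in 13.6% of all windows. The windows ran from 48% G and C in Fcgr2b to 65.7% in Wnt2. The RefSeq starts of Stab2, Fcgr2b and Wnt2 lie inside the gene as GENCODE M21 draws it.

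The receptors of the sinusoid were the most strongly expressed group by count, with summed levels of 1193 to 2127 normalised counts in young, 1257 to 1548 in middle-aged and 1466 to 1543 in aged livers. The sums of the 3 ages overlapped. The 4 aged livers lay close together (SD 32.0) and the 4 young ones far apart (SD 400), with young replicate 2 at the top and young replicate 4 at the bottom.

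Stab1 (ENSMUSG00000042286, chr14:31139013-31168641, minus strand, GRCm38) encodes stabilin-1, a multidomain receptor that takes up modified lipoproteins and extracellular matrix fragments. It had 213, 345, 286 and 150.3 normalised counts in young replicates 1 to 4. Middle-aged livers had 255, 311, 269 and 220.5, and aged livers 222, 278, 294 and 263. The young livers spanned both the lowest and the highest value of all 12. The DESeq2 log2 fold change was 0.09 in aged (SE 0.22, 95% interval −0.33 to 0.52) and 0.09 in middle-aged against young. Nt5dc2, on the opposite strand, shares 112 exon bases with Stab1 and had a mean of 28.4.

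Stab2 (ENSMUSG00000035459, chr10:86841198-87008025, minus strand) encodes stabilin-2, the main hyaluronan clearance receptor of the sinusoid. Young livers had 402, 512, 386 and 294 normalised counts. Middle-aged livers had 279, 375, 266 and 327, and aged livers 402, 371, 378 and 368. Middle-aged levels reached into the young range, and the aged livers were the most alike of any age (380.0 ± 15.6, SD, n = 4). The log2 fold change in middle-aged against young was −0.35 (SE 0.16, 95% interval −0.67 to −0.03), with an unadjusted p of 0.0304 and a DESeq2 adjusted p of 0.177. Without young replicate 4 it was −0.47, with a DESeq2 adjusted p of 0.0359. Aged against young gave −0.07 (interval −0.38 to 0.25).

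Lyve1 (ENSMUSG00000030787, chr7:110850607-110863239, minus strand) encodes a hyaluronan receptor of midzonal sinusoidal and of lymphatic endothelium, which some tissue macrophages carry too. Young livers had 97.7, 129, 104 and 86.9 normalised counts. Middle-aged livers had 36.7, 61.1, 74.2 and 65.1, all below the lowest young liver. Aged livers had 67.2, 56.8, 135 and 109 and covered both ranges. The log2 fold change in middle-aged against young was −0.81 (SE 0.29, 95% interval −1.39 to −0.23), and its DESeq2 adjusted p was 0.0705 and its edgeR adjusted p 0.113. Aged against middle-aged gave 0.63 (SE 0.29, DESeq2 adjusted p = 0.413) and aged against young −0.18 (interval −0.74 to 0.39). The call turned with small changes of the fit. The adjusted p of middle-aged against young was 0.0357 with the spike-in set as a covariate, 0.0164 when only these 2 ages were fitted, and 0.0417 and 0.0418 without aged replicate 2 and aged replicate 3, livers outside the comparison. It ranged from 0.0417 to 0.263 when single livers were left out, highest without young replicate 2.

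The 2 spike-in sets gave Lyve1 different values. Among replicates 1 and 2, aged against young was −0.86 (SE 0.41) and among replicates 3 and 4 it was 0.35 (SE 0.35), since aged replicates 1 and 2 had 67.2 and 56.8 and aged replicates 3 and 4 had 135 and 109. The difference between the sets was 1.22 (SE 0.48, unadjusted p 0.0108) and did not pass with the DESeq2 adjusted p of 0.376. Middle-aged against young was negative in both sets, −1.20 (SE 0.41) and −0.46 (SE 0.36). Summed Kupffer cell and macrophage markers were 6036 to 10344 in young, 5641 to 10078 in middle-aged and 6815 to 9546 in aged livers, overlapping throughout. Of 17 such markers with an adjusted p, 3 had positive and 14 negative log2 fold changes in middle-aged against young (median −0.26). In aged against middle-aged 14 were positive and 3 negative (median 0.20). The median over all genes tested was 0.01 in both pairs. Lyve1 moved in the same directions, and the part of macrophages in its values was not tested.

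Clec4g (ENSMUSG00000074491, chr8:3707064-3720651, minus strand) encodes the sinusoidal C-type lectin LSECtin, which binds glycans and lymphocyte surface proteins. Its young livers had 370.5, 643, 434 and 398 normalised counts. Middle-aged livers had 463, 424, 409.7 and 344, and aged livers 478, 413, 314 and 417. Young replicate 2 was the highest of all livers and aged replicate 3 the lowest, and the ages overlapped. Against young, the log2 fold change was −0.19 in aged (95% interval −0.55 to 0.17) and −0.17 in middle-aged livers (−0.53 to 0.19).

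Fcgr2b (ENSMUSG00000026656, chr1:170958617-170976547, minus strand) encodes the inhibitory Fc gamma receptor, which in sinusoidal endothelium takes up small immune complexes and is carried by B cells and macrophages as well. Young livers had 332, 498, 301 and 264 normalised counts. Middle-aged livers had 325, 377, 314 and 301, and aged livers 350.2, 387, 346 and 386. The aged livers fell within the young range, and the log2 fold change was 0.08 in aged against young (95% interval −0.26 to 0.42) and −0.08 in middle-aged against young (−0.42 to 0.26). B cell markers, all 8 of which were detected, summed to 61.5 to 231 in young, 42.7 to 437 in middle-aged and 77.1 to 163 in aged livers. They were highest in replicate 3 of every age, where Fcgr2b had 301, 314 and 346. Their part in the Fcgr2b values was not tested.

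**Figure D2:**
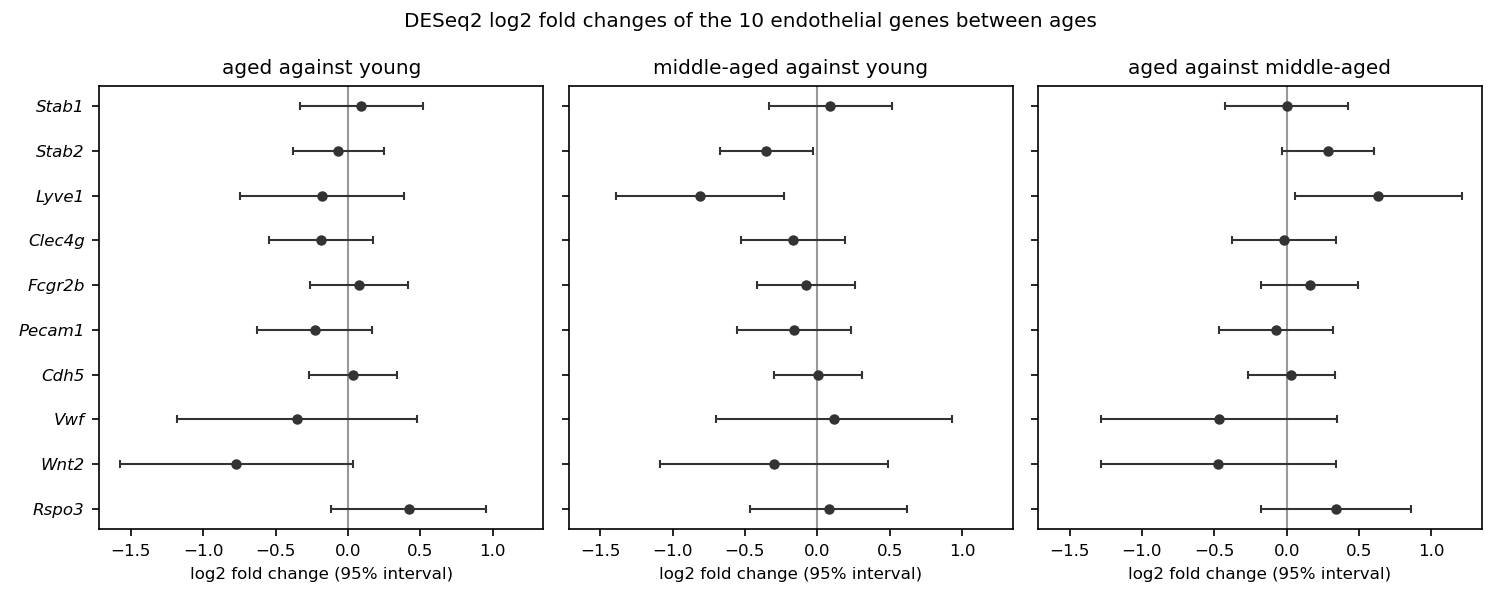
DESeq2 log2 fold changes (x axis) of the 10 genes in the 3 pairs of ages, with 95% intervals as bars, from 1 fit of 12 livers. The intervals of Lyve1 (−1.39 to −0.23) and Stab2 (−0.67 to −0.03) in middle-aged against young and of Lyve1 in aged against middle-aged (0.06 to 1.21) exclude 0 before adjustment, and those of Vwf and Wnt2 are the widest.

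None of the 3 pan-endothelial genes passed the test. Pecam1 (ENSMUSG00000020717, chr11:106654217-106750628, minus strand) encodes CD31, an adhesion molecule of endothelial junctions, platelets and leukocytes. Young livers had 138, 238, 135 and 118 normalised counts, middle-aged livers 133, 136, 150.1 and 141, and aged livers 126, 134, 125 and 148. Young replicate 2 was far above the remaining 11 livers, which lay between 118 and 150.1. The log2 fold change was −0.23 in aged (95% interval −0.63 to 0.16) and −0.16 in middle-aged against young (−0.55 to 0.23).

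Cdh5 (ENSMUSG00000031871, chr8:104101625-104144511, plus strand) encodes VE-cadherin, the adherens junction protein that defines endothelium. Its normalised counts were 227, 252, 172 and 173 in young, 197, 237, 196 and 195 in middle-aged and 189.7, 234, 191 and 229 in aged livers. The means of 206 ± 40.2, 206 ± 20.5 and 211 ± 24.0 (SD, n = 4 each) differed by less than the spread between livers. The 95% interval of aged against young, −0.27 to 0.34, was the narrowest of the 10 genes.

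Vwf (ENSMUSG00000001930, chr6:125546774-125686679, plus strand) encodes von Willebrand factor, the clotting multimer that endothelium of larger vessels and megakaryocytes make and that sinusoids largely lack. Young livers had 17.0, 38.2, 33.2 and 15.6 normalised counts, middle-aged livers 14.9, 27.8, 43.3 and 25.1, and aged livers 20.1, 15.4, 28.8 and 16.1. High and low livers occurred at every age, and the log2 fold change of −0.35 in aged against young had an interval of −1.18 to 0.47, too wide to show or exclude a change of 2-fold. The 9 platelet and megakaryocyte markers, all detected, summed to 215 in middle-aged replicate 3 and 144 in young replicate 2, the livers with the highest Vwf, and to between 42.0 and 105 in the others. Their part in the Vwf values was not tested.

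The Wnt genes had low counts. Wnt2 (ENSMUSG00000010797, chr6:17988940-18030585, minus strand) encodes a Wnt ligand made by sinusoidal and central vein endothelium. Young livers had 26.5, 39.5, 29.6 and 25.4 normalised counts. Middle-aged livers had 26.8, 31.4, 27.4 and 12.0, and aged livers 22.1, 23.1, 6.12 and 19.7. All 4 aged livers lay below the lowest young liver, and aged replicate 3 rested on 7 raw counts. The log2 fold change in aged against young was −0.77 (SE 0.41, 95% interval −1.58 to 0.04), with an unadjusted p of 0.0612, a DESeq2 adjusted p of 0.348 and an edgeR adjusted p of 0.314. Without aged replicate 3 the log2 fold change was −0.48 (SE 0.37, DESeq2 adjusted p = 0.711). It was −0.54 among replicates 1 and 2 and −1.10 among replicates 3 and 4.

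Rspo3 (ENSMUSG00000019880, chr10:29452416-29535867, minus strand) encodes R-spondin 3, the central vein factor that raises Wnt receptor levels on hepatocytes through Lgr4 and Lgr5. Normalised counts were 26.5, 43.3, 46.2 and 29.3 in young, 29.8, 44.0, 37.1 and 41.1 in middle-aged and 43.2, 37.6, 48.9 and 62.6 in aged livers. The highest value was in aged replicate 4 and the lowest in young replicate 1, with overlap of all ages. The log2 fold change in aged against young was 0.42 (SE 0.27, 95% interval −0.11 to 0.95, DESeq2 adjusted p = 0.492).

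The direction of Wnt2 and Rspo3 differed in aged livers, so their ratio within each liver, which does not depend on scaling, was taken after these values had been seen. Rspo3 over Wnt2 counts were 1.0, 1.10, 1.56 and 1.15 in young livers. They were 1.11, 1.40, 1.35 and 3.42 in middle-aged and 1.95, 1.62, 8.0 and 3.18 in aged livers. The lowest aged value, 1.62, lay next to the highest young one, 1.56, and the value of 8.0 rests on 7 counts of Wnt2. The pair was formed because the genes moved in opposite directions, and ratios of other pairs were not taken, so the values are a description with no test.

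**Figure D3:**
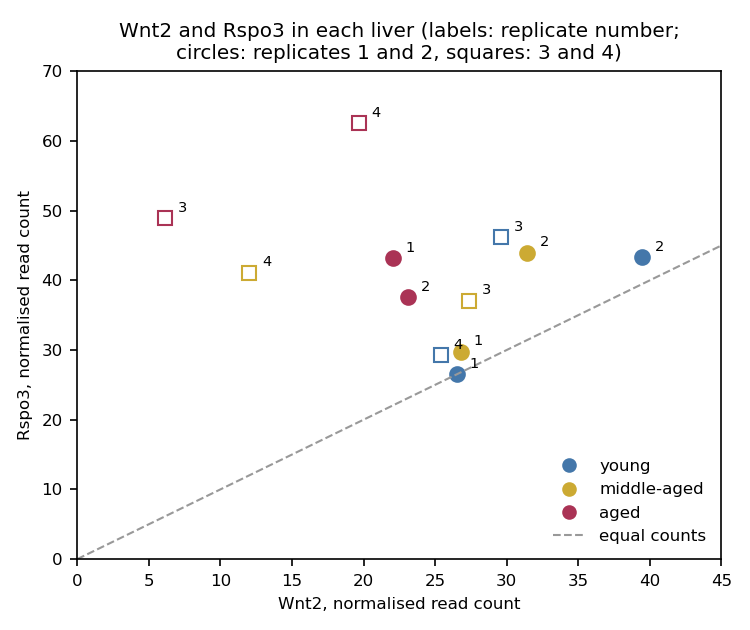
Normalised read counts of Rspo3 (y axis) against Wnt2 (x axis), 1 point per liver, coloured by age and numbered by replicate; the dashed line marks equal counts. Ratios of Rspo3 to Wnt2 span 1.0 to 1.56 (young), 1.11 to 3.42 (middle-aged) and 1.62 to 8.0 (aged), so the aged liver nearest the line lies about as far from it as the young liver farthest from it.

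Seen as a group, the genes stood near the background of the transcriptome. In aged against young livers 0 of 10 passed the DESeq2 adjusted threshold, where 3.58% of 13527 genes tested did, and 0 of 10 had an unadjusted p under 0.05, where 15.9% of genes did. In middle-aged against young livers 0 of 10 passed, against 6.41% of genes, and Lyve1 and Stab2 had an unadjusted p under 0.05, against 21.7%. In aged against middle-aged livers 8 of 10 kept an adjusted p after the filter on low counts (Vwf and Wnt2 did not), 0 passed, against 1.14% of genes, and Lyve1 alone had an unadjusted p under 0.05, against 9.94%. The likelihood ratio test across the 3 ages called 0 of 10, against 6.96% of genes, and gave its lowest adjusted p to Lyve1 (DESeq2, 0.138). By edgeR the count was 0 in each pair too, against 1.42, 2.31 and 0.107% of genes, with 0, 2 and 1 of the 10 at an unadjusted p under 0.05. The share of all genes at that unadjusted edgeR p was not taken, so these unadjusted counts have no background beside them. Non-overlap of the 4 livers of each age, seen for Wnt2 and Lyve1, occurred in either direction in 7.53% of genes for aged against young and 16% for middle-aged against young, so 1 gene in 10 is near the background. In aged against middle-aged none of the 10 was without overlap, against 6.55% of genes.

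The size of change that the data leave room for was limited for most of the genes. In aged against young, 8 of 10 intervals lay within a 2-fold change in either direction, in middle-aged against young 8 and in aged against middle-aged 7. The genes outside were Vwf and Wnt2 in aged against young, Lyve1 and Wnt2 in middle-aged against young, and Lyve1, Vwf and Wnt2 in aged against middle-aged. The median log2 fold change of the 10 genes was −0.12 in aged and −0.12 in middle-aged against young and 0.02 in aged against middle-aged, beside −0.0003, 0.01 and 0.01 over all genes tested.

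Young replicate 2 set much of the direction. It was the highest of all livers for 7 of the 10 genes, and for 5 when counts were scaled to the total of gene counts, while young replicate 4 was the lowest for 3. Without young replicate 2 the aged against young values turned from 4 positive and 6 negative to 7 positive and 3 negative, and their median from −0.12 to 0.06. Without young replicate 4 they were 1 positive and 9 negative with a median of −0.22. No gene was called in aged against young with either liver left out. The high mitochondrial share and red blood cell sum of young replicate 2 stand beside these values, and their part was not tested.

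**Figure D4:**
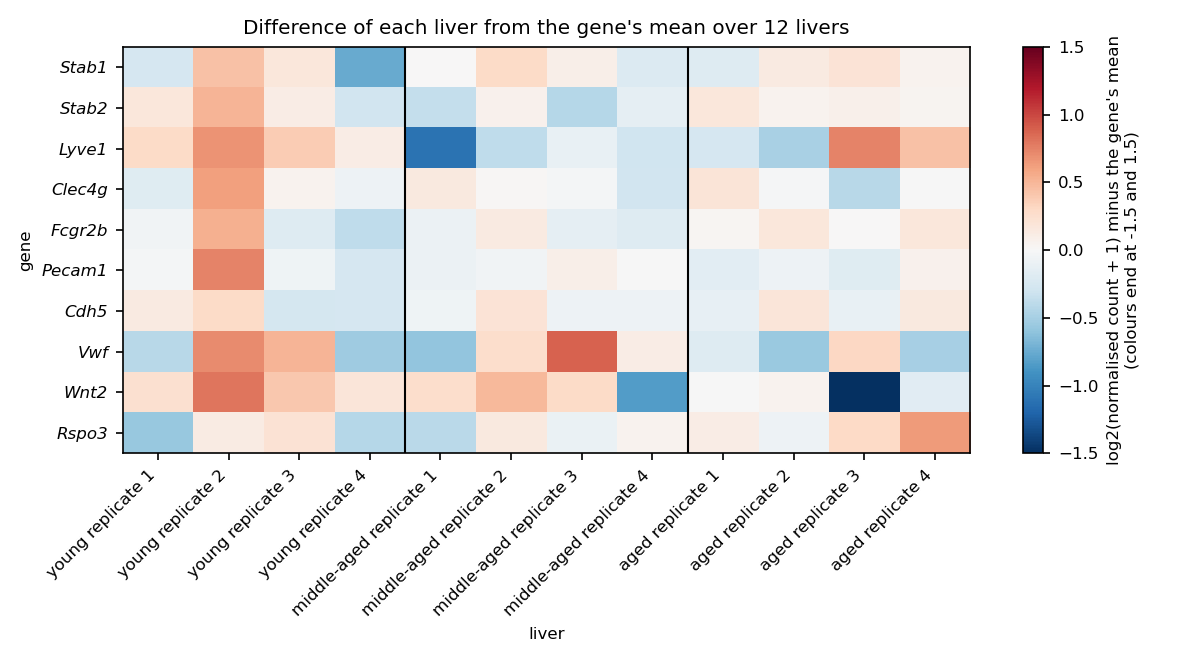
Difference of each liver (columns, grouped by age) from the mean of each gene (rows) over 12 livers, in log2(normalised count + 1), with colours from −1.5 to 1.5. Young replicate 2 is above the mean for all 10 genes, young replicate 4 is below the mean for 8 of 10 and farthest below it for Stab1, Lyve1 is lowest in middle-aged replicate 1, and aged replicate 3 is far below the mean for Wnt2.

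The values of the group also differed between the spike-in sets, by an amount that passed the threshold for no gene. Among replicates 1 and 2, 9 of the 10 genes were lower in aged than in young livers, and among replicates 3 and 4, 7 were higher. The median log2 fold change of the 10 genes was −0.21 and 0.21 in these sets, beside −0.0008 and 0.005 over 11804 genes. The genes vary together across livers, as given below, so such counts are not of separate observations. The age by set difference was positive for 8 of 10, where 50.9% of all genes had a positive value, and its smallest DESeq2 adjusted p was 0.376 for Lyve1, where 0.732% of genes passed. Young replicate 2 belongs to the first set together with young replicate 1. The sets were not compared without young replicate 2, so its part in these values was not tested. In aged against middle-aged, the pair without young livers, 5 of the 10 genes were lower among replicates 1 and 2 and 6 were higher among replicates 3 and 4. The difference between the sets was positive for 6 of 10 there, where 49.2% of all genes had a positive value, and 0 of the 10 had an unadjusted p under 0.05.

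The genes varied together to a moderate degree. Over the 7 genes whose mean level was 50 normalised counts or more, Pearson correlations of log2 levels across the 12 livers had a median of 0.53 in 21 pairs, and without young replicate 2 the median was 0.14. Livers share their depth and scaling across genes, so these are descriptions. Fcgr2b and Cdh5 had the highest value, 0.85, and 0.81 without young replicate 2. Clec4g and Wnt2 had 0.76 and 0.78 without that liver, and Stab1 and Fcgr2b 0.74 and 0.67. Aged replicate 3 was the lowest liver for both Clec4g and Wnt2, with 7 raw counts of Wnt2, and correlations without it were not taken. Among the 7 genes Lyve1 went least with the rest, from −0.03 with Clec4g to 0.56 with Stab2, and with Wnt2 it had −0.21. Wnt2 and Rspo3 had −0.30.

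Of 8881 other genes with a mean of at least 50, those most like the mean standardised level of the 7 genes over 12 livers were Tpra1 and Gtf2ird2 (r of 0.89 each), Arhgef15 (0.89), Oit3 (0.84), Brwd1 (0.84) and Ube3a (0.83). Arhgef15 encodes an endothelial guanine nucleotide exchange factor, and Oit3 belongs to the list of sinusoidal genes used below. Among 56 other endothelial genes the median r was 0.34, and 19 exceeded 0.5, against 7.11% of all genes. Without young replicate 2 the median was 0.14 and 3 of the 56 exceeded 0.5, against 5.0% of all genes. Oit3 and Arhgef15 then had 0.55 and 0.62.

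Levels were also taken relative to the mean of Pecam1 and Cdh5 counts in each liver. This mean does not measure endothelium alone, since platelets and leukocytes carry Pecam1 too. Fcgr2b over this mean was higher in all 4 aged livers (2.05 to 2.22) than in all 4 young (1.81 to 2.03) and all 4 middle-aged ones (1.79 to 2.02). Non-overlap in this direction occurred in 1.51% and 2.61% of 10714 genes. The lowest aged ratio, 2.05, lay next to the highest young one, 2.03, and Fcgr2b counts themselves overlapped between all ages. Fcgr2b varied closely with Cdh5 (r of 0.85), which is part of this mean, so these shares do not measure how rare its non-overlap is. Lyve1 over this mean was 0.223 to 0.429 in middle-aged and 0.525 to 0.680 in young livers, and Stab2 was 1.54 to 2.01 and 2.02 to 2.52, where 2.75% of genes were lower without overlap. Wnt2 was 0.0388 to 0.140 in aged and 0.145 to 0.193 in young livers, where 1.24% of genes were lower. For Stab2 and Wnt2 the highest value of the lower group lay next to the lowest of the other. Stab2 counts themselves overlapped between these ages. Stab2 varied with both genes of the mean (r of 0.53 with Pecam1 and 0.53 with Cdh5), so its share does not measure rarity either. The remaining genes overlapped between all ages on this scale. The ratio was formed with earlier results known and carries no test.

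Other genes of the same endothelium came from lists of 33 sinusoidal and 51 pan-endothelial genes. Of these 84 genes 3 were called in aged against young, near the 3.58% of all genes, and 3 in middle-aged against young, where 6.41% of all genes were called. In aged against young, Cd36 and Lifr of the sinusoidal list and Notch1 of the pan-endothelial list passed the DESeq2 threshold. Cd36, a fatty acid translocase that hepatocytes and macrophages express too, had 308, 213, 242 and 234 normalised counts in young and 261, 432, 1502 and 1132 in aged livers (log2 fold change 1.74, DESeq2 adjusted p = 0.0160). Lifr, a cytokine receptor with wide hepatic expression, was lower in aged (−0.64) and in middle-aged livers (−0.61). Notch1, the receptor of Notch ligands on endothelium and other cells, was higher in aged (1.13) and middle-aged livers (1.09). Bmp6, the endothelial ligand that sets hepcidin production, was higher in middle-aged than in young livers, with 92.3, 83.5, 85.7 and 67.2 against 49.9, 45.8, 34.4 and 46.9 (log2 fold change 0.89, SE 0.22, DESeq2 adjusted p = 0.00381, edgeR adjusted p = 0.0315). By edgeR, Bmp6 was the only one of these calls to pass. In DESeq2 it had no adjusted p, and so no call, without middle-aged replicate 1, 2 or 4 and among replicates 3 and 4. In aged against young the call of Cd36 was lost without young replicate 2 or 3 or aged replicate 3 or 4, that of Lifr without young replicate 1 or 2 or aged replicate 3 or 4, and that of Notch1 without young replicate 1 or 2 or any of aged replicates 2 to 4 (DESeq2 adjusted p of 0.0618 to 0.147 over these). In middle-aged against young, Lifr and Notch1 were lost without young replicate 1 or 2 or middle-aged replicate 2 or 3, and Notch1 without middle-aged replicate 4 too (0.0507 to 0.120). In aged against middle-aged none was called by either tool, with 3 sinusoidal and 4 pan-endothelial genes at an unadjusted p under 0.05, where 9.94% of all genes were.

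**Figure D5:**
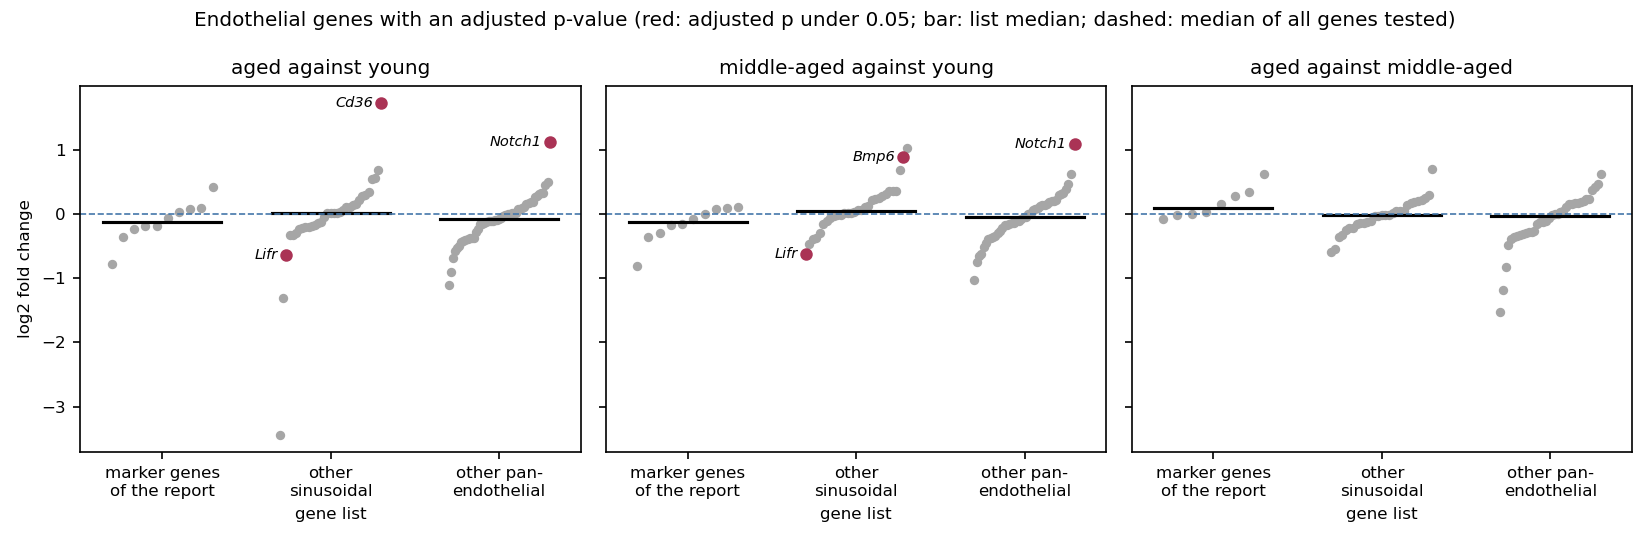
DESeq2 log2 fold change (y axis) of the 10 genes and of the other sinusoidal and pan-endothelial genes that kept an adjusted p (8 of the 10 genes in aged against middle-aged), 1 point per gene, with list medians as bars and the median of all genes tested dashed. Red points passed the adjusted threshold: Cd36, Lifr and Notch1 in aged against young, Bmp6, Lifr and Notch1 in middle-aged against young and none in aged against middle-aged.

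List medians lay near that of all genes. The log2 medians in aged against young were 0.02 for the sinusoidal list and −0.07 for the pan-endothelial list, and in middle-aged against young 0.05 and −0.05. Of the sinusoidal list's summed counts 34.8% came from Rnase4 and 23.1% from Ctsl, genes that hepatocytes express, so the sum does not follow endothelium. Mrc1, the mannose receptor of sinusoids and macrophages, had means of 350.1 ± 56.0, 346 ± 42.3 and 357 ± 55.1 (SD, n = 4) in young, middle-aged and aged livers. Kdr, the main VEGF receptor, had 308 ± 57.7, 335 ± 52.6 and 331 ± 77.3. Cd34, a marker that sinusoids gain on capillarisation, had 26.5, 26.7, 73.5 and 48.8 in young livers, 13.9, 38.6, 225 and 94.2 in middle-aged livers and 34.1, 15.4, 76.9 and 36.7 in aged livers, highest at every age in replicate 3.

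Along the Wnt pathway, 0 of 17 other secreted factors were called in any pair by DESeq2. Of those with an adjusted p, 1 had an unadjusted p under 0.05, in middle-aged against young, where 21.7% of all genes did. Only 10 of the 17 kept an adjusted p in aged against young, 7 in middle-aged against young and 4 in aged against middle-aged, and 3.58, 6.41 and 1.14% of all genes were called in these pairs. Wnt9b, the other Wnt of the central vein, had 5.31, 11.5, 11.8 and 5.86 normalised counts in young, 1.99, 8.08, 3.53 and 1.0 in middle-aged and 13, 7.71, 2.62 and 4.47 in aged livers, too few to compare ages. Of 16 receptors and regulators, Lrp6, the Wnt co-receptor (log2 fold change 0.49, DESeq2 adjusted p = 0.0402), and Znrf3, the ligase that removes Wnt receptors and that R-spondins restrain (0.84, adjusted p = 0.00620), rose in middle-aged against young livers. By edgeR the adjusted p was 0.0985 for Lrp6 and 0.0413 for Znrf3. The call of Lrp6 was lost without young replicate 2, 3 or 4, any middle-aged liver or aged replicate 4 (DESeq2 adjusted p of 0.0527 to 0.176). These were 2 of 12 receptors with an adjusted p, where 6.41% of all genes were called, and no receptor was called in the other pairs. Lgr5, a receptor of R-spondins on pericentral hepatocytes, had 45.5 ± 14.4, 50.1 ± 13.1 and 34.5 ± 3.36 (SD, n = 4).

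Of 18 pericentral target genes of hepatocytes, Cyp1a2, a drug-metabolising P450, fell in aged (−0.76, DESeq2 adjusted p = 0.000370) and middle-aged livers (−0.58, adjusted p = 0.00959), and the remaining genes were not called. This is 1 gene of 18 in each pair, beside 3.58 and 6.41% of all genes. By edgeR its adjusted p was 0.0306 and 0.0646, and without middle-aged replicate 4 the DESeq2 value for middle-aged livers was 0.050 (just above the threshold). By DESeq2, 8 of the 18 had an unadjusted p under 0.05 in aged against young, where 15.9% of all genes did. The 18 log2 fold changes there were 9 positive and 9 negative. In middle-aged against young 4 of 18 had one, against 21.7%, and in aged against middle-aged 2 of 16 with an adjusted p, against 9.94%. No test was made over the list. Glul, the glutamine synthetase of the hepatocytes around the central vein, had 6354 ± 604, 6034 ± 1552 and 4942 ± 517 normalised counts in young, middle-aged and aged livers, with a DESeq2 adjusted p of 0.184 for aged against young. Axin2, a general Wnt target, had 48.8 ± 18.1, 46.1 ± 15.1 and 58.1 ± 15.3.

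Markers of other cells were counted beside the endothelial genes. Of 18 Kupffer cell and macrophage markers Marco was called higher in aged than in young livers, of 18 stellate cell and fibroblast markers Ecm1 was higher, and of 7 biliary markers Sox9 was higher in aged than in young and in middle-aged livers. Single calls in lists of this size stand beside 3.58% of all genes called in aged against young and 1.14% in aged against middle-aged. Among the red blood cell markers Alas2 and Hbb-bs were lower in aged than in young livers, and the sums of the list ran from 9694 to 21289.8 in aged and from 23043 to 86580.2 in young livers without overlap, as 7.53% of single genes were. Of these calls only that of Ecm1 passed by edgeR. The call of Hbb-bs was lost on leaving out any of 8 single livers (DESeq2 adjusted p of 0.0576 to 0.273, highest without young replicate 2), that of Alas2 without young replicate 2 or aged replicate 3 or 4 (0.121 to 0.169) and that of Marco without any of young replicates 1 to 3 (0.0526 to 0.0858), and without aged replicate 4 Marco had no adjusted p. No B cell, platelet, lymphatic endothelial or hepatocyte marker was called in any pair. The lymphatic list, of which 5 of 6 genes were matched, summed to 735 to 1140.3 in young and 736 to 1896 in aged livers, most of it from Prox1, which hepatocytes express.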

How the data were processed

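RNA-seq read counts of 12 mouse livers were analysed, 4 at each of 3 ages, grouped by age and numbered as in the sample titles. The authors deposited whole-number counts per gene (Ensembl identifiers) with 92 spike-in rows, not normalised. The submitters' processing notes name STAR 2.5.2b, SAMtools 1.9, featureCounts, R 3.6.3, edgeR 3.28.1, DESeq2 1.26.0 and the builds mm10 and GRCm38. Per the labels the library kit keeps strand, but whether counting used it is not given in the sources used here, and the study names both libraries of its own and a public count table. Symbols, positions and exon lengths came from GENCODE M21, in which 53360 of 53465 identifiers were found.

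Spike-in rows were left out. The 28449 genes with a count were fitted with DESeq2 1.42.0 in R 4.3.3, all 12 livers in 1 fit with age as the only term, Wald tests for pairs, a likelihood ratio test across ages, default independent filtering and Benjamini-Hochberg adjustment at 0.05. Log2 fold changes are maximum likelihood estimates and intervals are 95% Wald intervals. Depth and floor are given with the results; counting error is a lower limit of the error. Correlations used log2(normalised count + 1).

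Alternatives were edgeR 4.0.16 quasi-likelihood, limma 3.58.1 voom with quality weights, TMM or total-count scaling, 2 count filters, a replicate block, the spike-in set as covariate or split, fits of 2 ages, and livers left out. Scaling without mitochondrial genes and the age by set interaction were added after the data were seen. Scripts were tested on simulated data.

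The 10 genes, the 13 other lists (219 symbols, 216 matched to 1 row) and the spike-in sets were chosen with earlier results of these data known. Named beyond the 10 genes are list genes called in a pair of ages (up to 6 per endothelial or Wnt list, by size of change), Wnt9b, Kdr, Mrc1, Cd34, Axin2, Lgr5 and Glul, and the 6 genes most like the group; called genes of other cell types, and genes named for their share of a list, were added after their values were seen. A further result among the red blood cell markers is not reported here. Replicates are separate animals.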

Additional observations from a re-analysis of the deposited data

Results flagged for a closer look

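Of 69 groups of 4 livers checked with Dixon's test for a single far value, 4 were flagged, where chance flags about 1 in 20. Pecam1 stood apart in young replicate 2, at 238 normalised counts against 118 to 138 in the other young livers. Cdh5 stood apart in middle-aged replicate 2, at 237 against 195 to 197. The summed other pan-endothelial genes reached 5734 in young replicate 2 against 4692 to 4847 in the other young livers. The summed B cell markers reached 231 in young replicate 3 against 61.5 to 88.1. Young replicate 2 carries both endothelial flags among young livers, one for a single gene and one for a list that does not contain it. Both rest on counts scaled by the size factor of this library, so they are not separate observations. Its size factor was 0.785, where the factor from total gene counts was 0.903, so how far it stands out depends on the scaling. The 4 flags in 69 groups are near the rate given for chance.

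Spike-in transcripts, whose counts entered no fit of genes although their relative amounts gave the sets used as a covariate, took from 1.59% of all counts to 10.6% in young replicate 2. The cause of these values was not tested.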

How the results depend on the processing

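Across 25 alternatives to each of 30 values of the 10 genes (3 pairs of ages), 5 of 750 were called, and the sign of a value that was not called turned in 54, most often for Stab1 in aged against middle-aged (8 of 25). The calls were all in middle-aged against young. With the spike-in set as covariate 1 gene was called and with only the 2 ages 1 gene, Lyve1 in both. Leaving out single livers gave 0 to 1 gene, Lyve1 without aged replicate 2 or 3 and Stab2 without young replicate 4. For aged against young, aged against middle-aged and the 3 ages together, every alternative gave 0. In aged against middle-aged, however, the filter on low counts left Vwf and Wnt2 without an adjusted p in the fit of 12 livers and all 10 genes without one among replicates 1 and 2, so they could not be called there. Values without an adjusted p occurred in middle-aged against young too. They include Vwf without young replicate 1 or middle-aged replicate 1, 2 or 4, and Vwf, Wnt2 and Rspo3 among replicates 3 and 4.

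Among the 84 other endothelial genes, 3 were called in aged against young, 0 by edgeR and 1 without independent filtering; leaving out single livers gave 0 to 5 (0 without young replicate 2, aged replicate 3 or aged replicate 4, and 5 without aged replicate 1). In middle-aged against young, 3 were called, 1 by edgeR and 1 without independent filtering, and leaving out livers gave 0 to 3 (0 without middle-aged replicate 2, where Bmp6 had no adjusted p, and 1 without young replicate 1 or 2 or middle-aged replicate 3 or 4). In aged against middle-aged the count of 0 became 1 without aged replicate 1 and 2 without aged replicate 2. The cause was not tested.

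Over all genes, the main counts of 484, 727 and 117 in the 3 pairs became 172, 280 and 13 by edgeR and 321, 443 and 62 without independent filtering. The replicate block gave 655, 385 and 426 and changed no call among the 10 genes. Replicate numbers did not pair livers (correlations of deviations from −0.30 to 0.16), and no liver was matched across ages. Scaling by total counts moved the median of 11804 genes from 0.01 to 0.12 in both comparisons with young, and raised the medians of the 10 genes to 0.01 each. For Vwf and Wnt2 depth limits the comparison.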
